A study of Mus musculus with 8 samples.

Results

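Solute carriers are membrane proteins that move ions, sugars, amino acids, organic acids, vitamins and metals across cell membranes, and the kidney tubule depends on a great many of them. Filtered solutes are taken back by carriers in the apical membrane of the proximal tubule and handed to the blood by carriers in its basolateral membrane. Later segments use other carriers to adjust sodium, chloride, acid and calcium, and cells of the medulla take up organic osmolytes against the salt around them. The carriers described here are the protein-coding genes of the table whose symbol starts with Slc and a number. That gives 55 genes, and 7 of them (Slc6a19, Slc7a7, Slc38a2, Slc1a4, Slc16a4, Slc16a1 and Slc5a8) were left out by the rule, which leaves 48 of the 1931 genes in the table. They were grouped by family number and known substrate, and by nephron segment where a list names them.

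The libraries came from kidneys of MRL-lpr mice, which develop lupus-like disease and lack normal Fas, a death receptor, in both groups. Propionate, a short-chain fatty acid of gut bacteria, was given to 1 group at 200 mM in drinking water for 6 weeks, and the other group is labelled control. Tissue came from mice of 12 weeks, with 4 libraries a group, and no label states what the controls drank or the sex of the mice. No label says that each library is a separate mouse, so p-values measure the spread between these libraries. Assigned reads ranged from 20005328 to 26711127 a library. The table held 7 of 10 proximal tubule markers, 2 of 5 of the thick ascending limb, 1 of 8 of the collecting duct, 1 of 4 of the distal convoluted and connecting tubule, Ren1 among mural cell markers and Cd68 among macrophage markers. None of those listed for podocytes, endothelium, T cells, B cells, neutrophils, red blood cells, adipocytes or adrenal gland is in it. Summed, the proximal tubule markers ranged from 185255 to 209113 scaled counts in controls and from 176565 to 205876 with propionate, so the groups overlapped. Cubn, Aqp1 and Kap, also listed as markers, are not in the table and so not in this sum. Genes entered the table only for a difference between these groups, so the sum cannot show whether proximal tubule content was alike. Of the 7 in this sum 4 were higher and 3 lower, and 1 of these, Pck1 (log2 fold change -0.87), fell by the authors' deposited table. Ren1 and the distal marker Pvalb were higher and Cd68 was lower, with none past the authors' adjusted p.

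Every gene in the table has an unadjusted p of at most 0.05 in the authors' own comparison of these libraries, 983 higher and 948 lower (49.1%) with propionate. Each carrier was therefore listed because it differed here, 18 higher and 30 lower (62.5%) with propionate, and carriers that did not differ were not analysed here. The mouse annotation used for transcript GC content holds 371 Slc genes. The table holds 55, and these lists were not matched by symbol. A test on genes selected in this way passes most of them, so edgeR adjusted p-values over the listed genes are given as a description. The words rose and fell are used below only of genes below 0.05 by the adjusted p that the authors deposited, where the adjustment ran over 16064 genes.

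By the authors' deposited table, 1 carrier rose and 8 fell with propionate. Those that fell were the bile acid carrier Slc10a2, the sodium-proton exchanger Slc9a2, the monocarboxylate family member Slc16a6, the peptide carrier Slc15a2, the amino acid transporter Slc7a12, the dicarboxylate carrier Slc13a3, the Slc22 family member Slc22a26 and the nucleotide sugar carrier Slc35d2. The counts are 2.08% and 16.7% of the 48 carriers, where 2.8% and 5.33% of all 1931 listed genes were called higher and lower by the same rule. By edgeR, 8 carriers (16.7%) were called higher and 28 (58.3%) lower when its p was adjusted over the listed genes (threshold 0.05). Of all 1792 genes tested, 25.9% were called higher and 41.9% lower. By edgeR, the carriers' median log2 fold change was -0.29 and that of all tested genes 0.11. Each gene was listed for a difference, so a median mostly follows the more frequent direction. Of the carriers 37.5% were higher, and of all tested genes 53.2%. The edgeR p-values were also adjusted over 16064 genes, with each gene that edgeR did not test given the highest possible p. With this adjustment edgeR called 0 carriers and 6 genes in all, and the smallest adjusted p of a carrier was 0.0683. At an unadjusted p of 0.05, 41 of the 48 carriers and 1463 of the 1792 genes passed by edgeR. The share higher among the called genes was 38.2% with TMM scaling, 53.4% with the authors' size factors and 70.8% after removal of a trend on gene length and GC content. Of the 36 edgeR calls of carriers 28 ended without at least 1 library, and 8 held without each, those of the carriers that fell except Slc22a26 and that of Slc35a3.

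**Figure D1:**
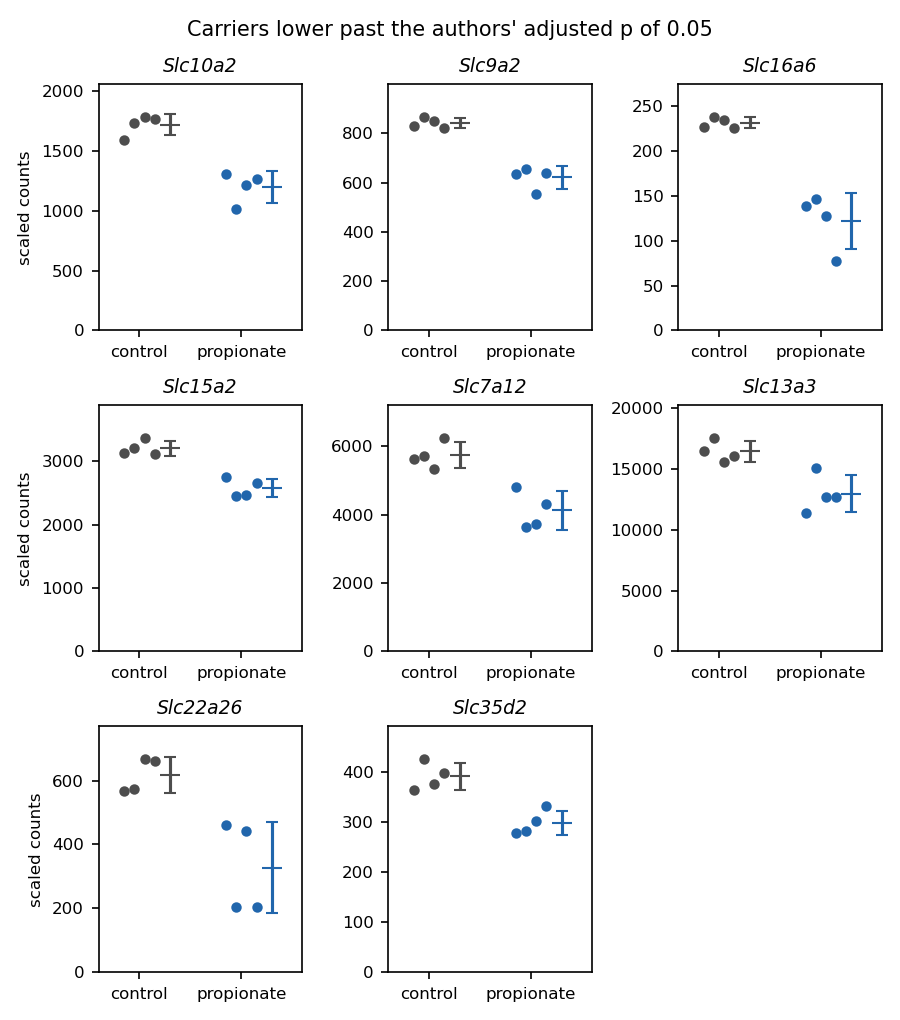
Scaled counts (deposited counts divided by the authors' size factor) of the 8 carriers that fell by the authors' adjusted p of 0.05, for each library, with the group mean and SD (n = 4) beside the points. In all 8 every propionate library lies below every control library.

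In 20 of the 48 carriers the scaled counts of the groups did not overlap, 6 higher (12.5%) and 14 lower (29.2%) with propionate. Over all listed genes the shares were 24.1% and 23.5%. Replicates varied by a median of 9.10% of the mean in controls and 9.41% with propionate. Among the 30 lower carriers, the lowest value lay in propionate replicate 1 for 12, replicate 2 for 9, replicate 3 for 6 and replicate 4 for 3. Among the 18 higher ones the highest value lay in propionate replicate 4 for 8, replicate 3 for 6 and replicate 2 for 4. On the control side, the highest value of the lower carriers lay in replicate 2 for 15, replicate 3 for 9, replicate 4 for 4 and replicate 1 for 2. The lowest value of the higher carriers lay in control replicate 4 for 7, replicates 1 and 3 for 5 each and replicate 2 for 1. No single library therefore held the extreme value of all carriers in either direction. A lower value in bulk tissue cannot tell fewer cells of a type from less RNA per cell.

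**Figure D2:**
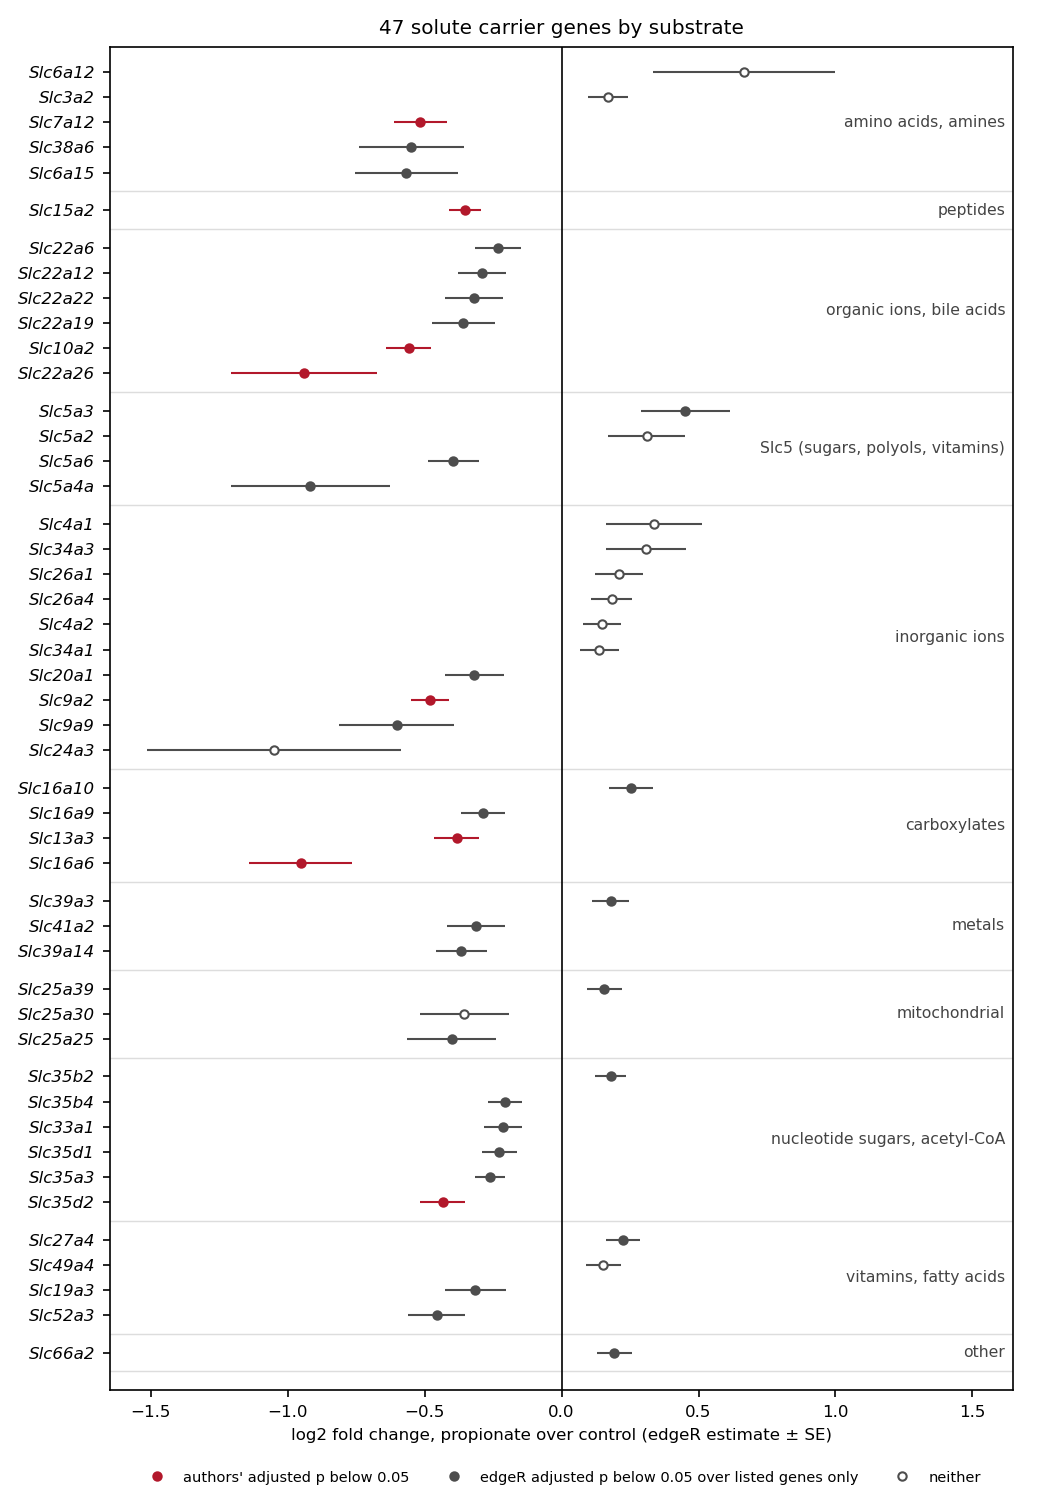
Log2 fold change (propionate over control, edgeR estimate with its SE) of 47 carriers, grouped by substrate. Red points passed the authors' adjusted p of 0.05, filled grey points passed edgeR's test over the listed genes alone, and open points passed neither. The 6 carriers of organic ions and bile acids drawn lie below 0, and of the 10 carriers of inorganic ions 6 lie above 0.

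Carriers of organic anions, cations, urate and bile acids, which the proximal tubule uses to take up and secrete metabolites and drugs, were lower in 6 of 7 members. Slc10a2, the apical sodium-dependent bile acid carrier best known from the ileum, had 1591, 1736, 1789 and 1765 scaled counts in the control libraries and 1307, 1013, 1217 and 1265 in the propionate libraries. Its mean went from 1720.2 ± 88.99 to 1200.4 ± 131 scaled counts (SD, n = 4), and every propionate library lay below every control library. It fell, with a log2 fold change of -0.56 ± 0.08 (SE; edgeR adjusted p = 0.00761 over the listed genes), while the authors' deposited table gives 7.03e-05 as adjusted p. After removal of a trend on gene length and GC content the edgeR call ended, at -0.17 (edgeR adjusted p = 0.19).

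Slc22a26, a rodent member of the organic anion branch of the Slc22 family, had 566, 573, 669 and 661 scaled counts in the control libraries and 462, 205, 441 and 204 in the propionate libraries. Its propionate libraries were uneven, with replicates 2 and 4 at less than the other 2, and all lay below the controls. Slc22a26 averaged 617 ± 55.1 scaled counts in controls and 328 ± 142 with propionate (SD, n = 4). It fell, at a log2 fold change of -0.94 ± 0.27 (SE; edgeR adjusted p = 0.03) and 0.0326 as adjusted p in the authors' deposited table. The edgeR call ended without control replicate 3 or propionate replicate 4, with log2 fold changes of -1.16 to -0.75 over the 8 fits that leave out 1 library (highest adjusted p = 0.0615). The other 4 lower members did not pass in the authors' table. They are the urate carrier Slc22a12 (-0.29 on the log2 scale), Slc22a19 (-0.36), the prostaglandin carrier Slc22a22 (-0.32) and Slc22a6, the organic anion transporter OAT1 (-0.23). Removal of that trend also ended the edgeR call of Slc22a26, and it turned Slc22a19 to 0.04. Slc22a19 and Slc22a26 belong to a mouse cluster of similar genes, and the treatment of reads that fit several copies is unknown.

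Carriers of inorganic ions were 6 higher and 4 lower, and 1 of the 10 passed by the authors' deposited adjusted p. That was Slc9a2, the sodium-proton exchanger NHE2, which is found apically in the thick ascending limb and distal tubule. It had 831, 868, 850.4 and 820.0 scaled counts in the control libraries and 635, 656, 554 and 639 in the propionate libraries. The lowest control library was 1.25 times the highest propionate library. Slc9a2 averaged 843 ± 21.3 scaled counts in controls and 621 ± 45.7 with propionate (SD, n = 4). Slc9a2 fell, with a log2 fold change of -0.48 ± 0.07 (SE) and 0.00761 as edgeR adjusted p, while the authors' deposited table gives 0.000182 as adjusted p. Its call held without each library in turn (log2 fold changes -0.51 to -0.43) and after removal of a trend on gene length and GC content (-0.43, edgeR adjusted p = 0.00276). The summed level of the 2 thick ascending limb markers in the table, Egf and Kcnj1, was 38306 to 38941 scaled counts in controls and 29031 to 38156 with propionate, Egf being lower and Kcnj1 higher. The other 3 listed, Umod, Cldn16 and Ptger3, were not analysed here, and the part of this segment's cells in the fall of Slc9a2 was not tested. Slc20a1, the widely expressed phosphate carrier PiT-1, had 357, 414, 458 and 456 scaled counts in the control libraries and 332, 294, 355 and 408 in the propionate libraries. Its groups overlapped. Slc20a1 averaged 421 ± 47.2 scaled counts in controls and 347 ± 47.7 with propionate (SD, n = 4). The log2 fold change was -0.32 ± 0.11 (SE) with an edgeR adjusted p of 0.0383, a call that ended without control replicate 2, 3 or 4 or propionate replicate 2, 3 or 4 (log2 fold changes -0.39 to -0.25, highest adjusted p = 0.0807), and the authors' deposited table gives 0.406 as adjusted p. With the trend removed Slc20a1 stood at -0.10 (edgeR adjusted p = 0.505).

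The 6 higher members are carriers of phosphate, sulfate, chloride and bicarbonate in the tubule, and none passed either test. With the authors' size factors in place of TMM, 5 of the 6, all but Slc4a1, passed edgeR over the listed genes. In that fit 863 genes were called higher, 48.2% of all 1792 tested, lower ones included. With TMM 954 of the 1792 had a higher estimate, so 48.2% is not the share among higher genes. Their log2 fold changes were 0.14 for Slc34a1 and 0.31 for Slc34a3, the apical phosphate carriers of the proximal tubule, and 0.21 for the sulfate exchanger Slc26a1. They were 0.18 for pendrin, Slc26a4, 0.34 for the anion exchanger Slc4a1 and 0.15 for Slc4a2. Slc4a1 is also the band 3 protein of red blood cells. The table held 0 of the 3 red blood cell markers listed, and the part of blood in its difference was not tested. Slc24a3, a calcium exchanger described here after its values were seen, had the lowest log2 fold change of all 48 carriers, -1.05 ± 0.46 (SE), but rested on control replicate 1 at 215 scaled counts, where the other 7 libraries lay between 29.4 and 72.9. Without that library it was -0.33 (edgeR adjusted p = 0.271). Slc9a9, the endosomal member of the Slc9 exchangers, had -0.60, and its edgeR call ended without any 1 of the 8 libraries.

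In the Slc13 and Slc16 families, grouped here by family number as carriers of mono-, di- and tricarboxylates, 3 of 4 members were lower. Slc16a6, the monocarboxylate transporter family member MCT7, is known from zebrafish liver as an exporter of ketone bodies. It had 227, 239, 235 and 226 scaled counts in the control libraries and 138, 147, 127 and 77.3 in the propionate libraries. The groups did not overlap, and propionate replicate 4 was the lowest library. Slc16a6 averaged 232 ± 6.16 scaled counts in controls and 122 ± 31.1 with propionate (SD, n = 4). It fell to 52.9% of the control mean. Its log2 fold change of -0.95 ± 0.19 (SE) gave 0.0161 as edgeR adjusted p, while the authors' deposited table gives 0.000798 as adjusted p. Its call held without each library in turn (-1.05 to -0.77) and with the length and GC trend removed (-0.78, edgeR adjusted p = 0.0112). In the annotation 21.5% of its exon bases are shared with Amz2 on the opposite strand, and whether reads were counted by strand is unknown. The same holds for Slc22a12 with Nrxn2 (30.1%), Slc5a2 with BC017158 (20.6%) and Slc33a1 with Gm26850 (32.02%).

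Slc13a3, the basolateral sodium-dicarboxylate carrier that brings citric acid cycle intermediates into proximal tubule cells, had 16495, 17565, 15575 and 16085 scaled counts in the control libraries and 11369, 15051, 12685 and 12720.5 in the propionate libraries. Here too the groups did not overlap. Slc13a3 averaged 16430.0 ± 845 scaled counts in controls and 12956 ± 1532 with propionate (SD, n = 4). It fell to 78.9% of the control mean, with a log2 fold change of -0.38 ± 0.08 (SE; edgeR adjusted p = 0.019), while the authors' deposited table gives 0.0215 as adjusted p, and with the length and GC trend removed this was -0.41 (edgeR adjusted p = 0.00744). Slc16a9 was lower (-0.29) and Slc16a10, a basolateral carrier of aromatic amino acids in the same family, was higher (0.25). Neither passed, with 0.214 and 0.0634 as adjusted p in the authors' deposited table. As the table gives them, Slc16a6 lies on chromosome 11, 109341681 to 109364424, and Slc13a3 on chromosome 2, 165246948 to 165315150. Slc10a2 is given on chromosome 8, 5133219 to 5155351 and Slc9a2 on chromosome 1, 40719734 to 40808433. These are whole-gene spans in a build that the table does not name, and none of the 48 carriers has the same start and end in GENCODE M21 (GRCm38).

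Carriers of amino acids, amines and peptides were lower in 4 of 6 members. Slc7a12, a light-chain amino acid transporter of the Slc7 family that is strongly expressed in mouse kidney, had 5636, 5734, 5334 and 6259 scaled counts in the control libraries and 4827, 3631, 3720.1 and 4325 in the propionate libraries. Its mean went from 5741 ± 385 to 4126 ± 559.9 scaled counts (SD, n = 4), and the groups did not overlap. It fell, with a log2 fold change of -0.52 ± 0.10 (SE; edgeR adjusted p = 0.0158) and 0.00143 in the authors' deposited table. Slc15a2, the apical proton-coupled peptide carrier PEPT2 of the later proximal tubule, had 3125, 3211, 3376 and 3117 scaled counts in the control libraries and 2749, 2448, 2465 and 2661 in the propionate libraries. Its groups were apart too. Slc15a2 averaged 3207 ± 120.1 scaled counts in controls and 2581 ± 148 with propionate (SD, n = 4). It fell, with a log2 fold change of -0.35 ± 0.06 (SE; edgeR adjusted p = 0.0114; 0.00118 in the authors' deposited table). With the length and GC trend taken out, the log2 fold change was -0.22 for Slc7a12 (edgeR adjusted p = 0.105) and 0.02 for Slc15a2 (edgeR adjusted p = 0.815), so both calls ended and the sign of Slc15a2 turned.

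Slc6a15, a carrier of branched-chain amino acids and proline known from brain, had 258, 502, 439 and 504 scaled counts in the control libraries and 291, 297, 254 and 339 in the propionate libraries. Control replicate 1 lay among the propionate libraries. Slc6a15 averaged 426 ± 116 scaled counts in controls and 295 ± 35.02 with propionate (SD, n = 4). The log2 fold change was -0.57 ± 0.19 (SE) with an edgeR adjusted p of 0.036, a call that ended without control replicate 2, 3 or 4 or propionate replicate 3 or 4 (log2 fold changes -0.74 to -0.48, highest adjusted p = 0.0738). Slc6a15 stood, after removal of the length and GC trend, at -0.17 (edgeR adjusted p = 0.523). Slc38a6 was also lower (-0.55). Slc3a2, the heavy chain that carries several Slc7 light chains to the membrane, was higher (0.17), and so was Slc6a12, the betaine carrier (0.67). In the authors' deposited table these 4 did not pass, their adjusted p running from 0.219 for Slc6a15 to 0.372 for Slc6a12.

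Carriers that bring nucleotide sugars and acetyl-CoA into the Golgi and endoplasmic reticulum were lower in 5 of 6 members. Slc35d2, a nucleotide sugar carrier of the Golgi, had 365, 427, 377 and 397 scaled counts in the control libraries and 278, 282, 301 and 332 in the propionate libraries. The groups did not overlap. Slc35d2 averaged 391 ± 27.1 scaled counts in controls and 298 ± 24.7 with propionate (SD, n = 4). It fell, with a log2 fold change of -0.43 ± 0.08 (SE; edgeR adjusted p = 0.0158), while the authors' deposited table gives 0.0449 as adjusted p. Slc35a3, which carries UDP-N-acetylglucosamine, had 1417, 1576, 1533 and 1502 scaled counts in the control libraries and 1302, 1318, 1267 and 1277 in the propionate libraries. These groups did not overlap either. Slc35a3 averaged 1507 ± 66.97 scaled counts in controls and 1291 ± 23.4 with propionate (SD, n = 4). It had a log2 fold change of -0.26 ± 0.05 (SE; edgeR adjusted p = 0.0178), but the authors' deposited table gives 0.0511 as adjusted p. Slc35d1 (-0.23), Slc35b4 (-0.21) and the acetyl-CoA carrier Slc33a1 (-0.21) were lower, and Slc35b2, which carries the sulfate donor PAPS, was higher (0.18). After removal of the length and GC trend all 6 edgeR calls of this group ended, and 5 of its 6 members had log2 fold changes above 0, from 0.06 for Slc35b2 to 0.19 for Slc35a3. Slc35d2 then had -0.17 (edgeR adjusted p = 0.187).

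Of the 4 carriers of vitamins and fatty acids 2 were higher and 2 lower, and so were those of the 4 Slc5 family members, and of these 8 none passed by the authors' deposited adjusted p. Slc52a3, the riboflavin carrier RFVT3, had 302, 355, 401 and 394 scaled counts in the control libraries and 281, 245, 280.3 and 281 in the propionate libraries. The groups did not overlap. Slc52a3 averaged 363 ± 45.3 scaled counts in controls and 272 ± 17.99 with propionate (SD, n = 4). The log2 fold change was -0.46 ± 0.10 (SE; edgeR adjusted p = 0.0212), and the authors' deposited table gives 0.0768 as adjusted p. Slc5a6, the sodium-dependent carrier of biotin and pantothenate, which stands in a family of mostly sugar carriers, had 907, 1191, 1169.8 and 1216 scaled counts in the control libraries and 784, 863, 874 and 986 in the propionate libraries. Control replicate 1 lay among the propionate libraries. Slc5a6 averaged 1121 ± 144 scaled counts in controls and 877 ± 83.3 with propionate (SD, n = 4). Its log2 fold change was -0.40 ± 0.09 (SE; edgeR adjusted p = 0.0224; 0.115 in the authors' deposited table). The edgeR calls of both ended without control replicate 3, each at an adjusted p of 0.0529, with log2 fold changes of -0.53 to -0.41 and -0.48 to -0.35 over the 8 fits.

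Slc27a4, the fatty acid transport protein FATP4, was higher, with 1474, 1558, 1479.9 and 1389.8 scaled counts in the control libraries and 1717, 1741, 1643 and 2000.3 in the propionate libraries. The groups did not overlap. Slc27a4 averaged 1475 ± 68.7 scaled counts in controls and 1775 ± 156 with propionate (SD, n = 4). Its log2 fold change was 0.22 ± 0.06 (SE; edgeR adjusted p = 0.0286; 0.0859 in the authors' deposited table), and the edgeR call ended without control replicate 3 or propionate replicate 4 (log2 fold changes 0.19 to 0.26, highest adjusted p = 0.0606). The lysosomal protein Slc49a4 was higher too (0.15), and the thiamine carrier Slc19a3 was lower (-0.32). Slc5a4a, a sodium-glucose carrier family member, was among the carriers with the fewest reads, with 24.9, 32.6, 29.8 and 19.4 scaled counts in the control libraries and 10.8, 20.5, 11.99 and 14.9 in the propionate libraries. Its groups overlapped. Slc5a4a averaged 26.7 ± 5.79 scaled counts in controls and 14.6 ± 4.35 with propionate (SD, n = 4). The log2 fold change of -0.92 ± 0.29 (SE) gave 0.0347 as edgeR adjusted p (0.354 in the authors' deposited table), and the call ended without control replicate 1, 2 or 3 or propionate replicate 3 or 4 (log2 fold changes -1.13 to -0.81, highest adjusted p = 0.0701).

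Metal carriers were lower in 2 of 3 members and mitochondrial carriers in 2 of 3, and none passed, with values in the authors' deposited table running from an adjusted p of 0.197 for Slc39a14 to 0.403 for Slc25a30. Slc39a14, the zinc, iron and manganese carrier ZIP14, had 654, 636, 789 and 730.1 scaled counts in the control libraries and 524, 506, 550.4 and 664 in the propionate libraries. Propionate replicate 4 reached into the control range. Slc39a14 averaged 702 ± 70.5 scaled counts in controls and 561 ± 71.2 with propionate (SD, n = 4). Its log2 fold change was -0.37 ± 0.09 (SE; edgeR adjusted p = 0.0261), and the call ended without control replicate 3 or propionate replicate 3 (log2 fold changes -0.43 to -0.31, highest adjusted p = 0.0602) and also under removal of the length and GC trend (-0.22, edgeR adjusted p = 0.123). Slc41a2, a magnesium carrier, had 486, 713, 578 and 569 scaled counts in the control libraries and 453, 499.9, 498 and 493 in the propionate libraries. Control replicate 1 lay within the propionate range. Slc41a2 averaged 586 ± 94.04 scaled counts in controls and 486 ± 22.2 with propionate (SD, n = 4). Its edgeR log2 fold change was -0.31 ± 0.11 (SE) (adjusted p = 0.0377), and with the length and GC trend removed that of Slc41a2 was 4.1e-05 and the call ended. The zinc carrier Slc39a3 was higher (0.18).

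Slc25a25, a calcium-regulated carrier of ATP-magnesium and phosphate in the inner mitochondrial membrane, had 499.9, 629.9, 759 and 803 scaled counts in the control libraries and 431, 631, 443 and 591 in the propionate libraries. The groups overlapped. Slc25a25 averaged 673 ± 137 scaled counts in controls and 524 ± 102 with propionate (SD, n = 4). The log2 fold change was -0.40 ± 0.16 (SE; edgeR adjusted p = 0.0487). Slc25a39, a carrier of glutathione into mitochondria, had 11265, 12279, 12188 and 11869 scaled counts in the control libraries and 12011, 13476, 13596 and 15553 in the propionate libraries. Propionate replicate 1 lay among the controls. Slc25a39 averaged 11900.3 ± 459 scaled counts in controls and 13659 ± 1454 with propionate (SD, n = 4). The log2 fold change was 0.16 ± 0.06 (SE; edgeR adjusted p = 0.0495). Removal of the length and GC trend left 0.02 for Slc25a39 (edgeR adjusted p = 0.772) and -0.18 for Slc25a25 (edgeR adjusted p = 0.405), and with the authors' size factors the call of Slc25a25 ended as well (edgeR adjusted p = 0.0565). Slc25a30, a mitochondrial carrier first named from kidney, was lower (-0.36). Slc66a2, of a family of PQ-loop proteins, had 872, 976, 987 and 855 scaled counts in the control libraries and 1090.3, 1106, 1036 and 1105 in the propionate libraries. The groups did not overlap. Slc66a2 averaged 922 ± 68.5 scaled counts in controls and 1084 ± 32.8 with propionate (SD, n = 4). This gave a log2 fold change of 0.19 ± 0.06 (SE; edgeR adjusted p = 0.036; 0.153 in the authors' deposited table). The edgeR calls of Slc25a39 and Slc66a2 ended in each fit that leaves out 1 library except that without propionate replicate 1, with log2 fold changes of 0.11 to 0.20 and 0.16 to 0.22 over the 8 fits and highest adjusted p-values of 0.116 and 0.0693. Those of Slc41a2 and Slc25a25 ended in each except those without control replicate 1 and propionate replicate 2, with log2 fold changes of -0.39 to -0.20 and -0.52 to -0.31 and highest adjusted p-values of 0.0757 and 0.112.

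By nephron segment, 16 of the 48 carriers were on a list. Of the 31 apical proximal tubule carriers listed 5 are in the table, 3 higher and 2 lower, and of the 16 basolateral ones 5, again 3 higher and 2 lower. Among these 10, Slc13a3 and Slc15a2 fell by the authors' deposited table. Slc5a2, the glucose carrier SGLT2 of the early proximal tubule, was higher (0.31) with overlapping groups. The thick ascending limb had 2 of 5 in the table, Slc9a2 lower and Slc4a2 higher, and the intercalated cells of the collecting duct 2 of 7, Slc26a4 and Slc4a1, both higher. Aqp3, the 1 collecting duct marker of 8 in the table, was also higher (0.27), and its part was not tested. None of the 3 carriers listed for the distal convoluted and connecting tubule is in the table. The carriers of each proximal membrane thus held members in both directions. Listed segments differ in how many of their carriers could be analysed, so no order between segments was drawn.

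**Figure D3:**
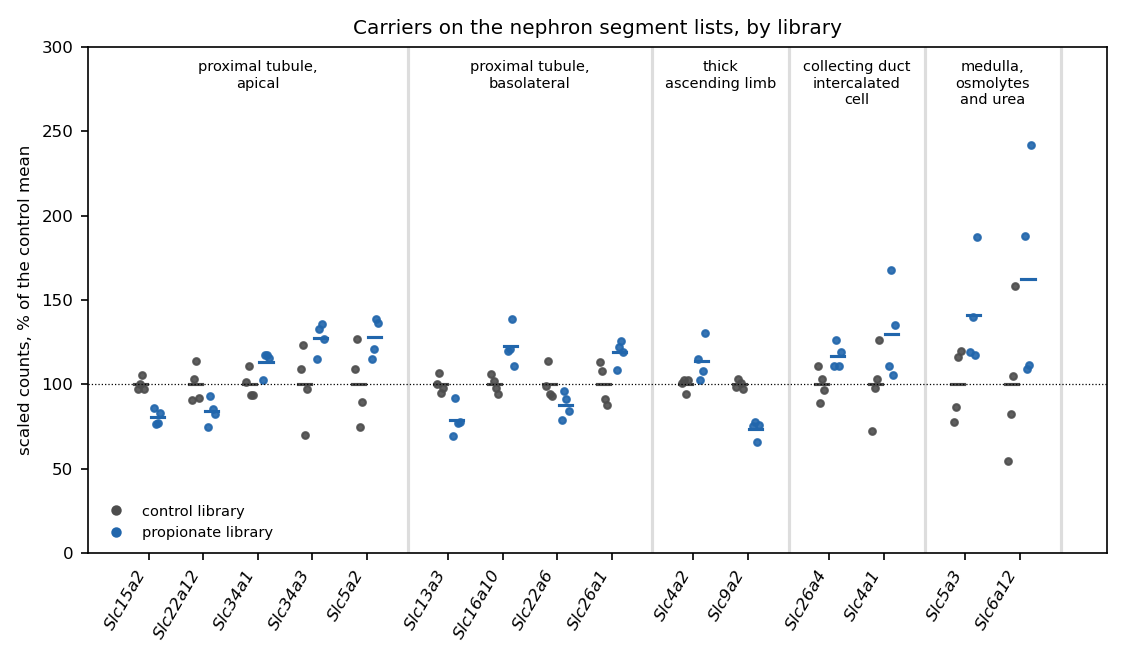
Scaled counts of 15 carriers on a nephron segment list, for each library, as a percentage of that gene's control mean, with short lines at the group means (n = 4). In the proximal tubule, apical and basolateral carriers lie on both sides of 100%, and for the 2 osmolyte carriers of the medulla propionate replicate 4 is the highest library.

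The 2 carriers of the medulla list, out of 7, take up organic osmolytes and were named after their values were seen. Slc5a3, the myo-inositol carrier, had 2141, 2378, 3204 and 3292 scaled counts in the control libraries and 3288, 3855, 3239.8 and 5157 in the propionate libraries. Propionate replicate 4 was the highest library, and replicates 1 and 3 lay beside control replicates 3 and 4. Its log2 fold change was 0.45 ± 0.16 (SE; edgeR adjusted p = 0.0408), the call ended without control replicate 1, 2 or 3 or propionate replicate 2, 3 or 4 (log2 fold changes 0.31 to 0.55, highest adjusted p = 0.0922), and the authors' deposited table gives 0.158 as adjusted p. Slc6a12, the betaine carrier, had 79.5, 120.2, 153 and 231 scaled counts in the control libraries and 274, 159, 162 and 353 in the propionate libraries. Its groups overlapped, and its log2 fold change of 0.67 ± 0.33 (SE) did not pass (edgeR adjusted p = 0.0773; 0.372 in the authors' deposited table). Propionate replicate 4 was the highest library for both. Both genes are known targets of NFAT5, the osmotic stress factor, which binds the tonicity element TonE. The 1 RefSeq window of Slc6a12 that holds a match, from 250 bases before to 50 after a transcript start (GRCm38.p6, chr6:121342324-121342623, plus strand) is shown for this reason, with its 1 match to TonE in capitals, on the strand of the gene and beginning at base -75 from the start.
Slc6a12: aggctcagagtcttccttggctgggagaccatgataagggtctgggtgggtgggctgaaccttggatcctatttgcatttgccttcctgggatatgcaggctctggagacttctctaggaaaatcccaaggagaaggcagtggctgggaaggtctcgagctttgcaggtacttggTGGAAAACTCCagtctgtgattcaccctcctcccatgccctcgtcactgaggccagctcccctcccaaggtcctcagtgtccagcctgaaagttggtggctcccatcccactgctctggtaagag

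TonE matches, searched on both strands, were in 4.96% of the 32851 windows of all genes and in 3 of the 49 windows (6.12%) of the 37 carriers that have one. The other 2 belong to Slc22a19 and Slc38a6, which were lower. The window of Slc5a3 holds none, which says only that these letters are not in it.

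Proteins that carriers work with were described from a list of 63 partners and regulators, of which 13 are in the table, 9 higher and 4 lower, with a median log2 fold change of 0.16. Of these 13, 2 rose and 1 fell by the authors' deposited table, beside 2.8% and 5.33% of all listed genes. Cltrn, collectrin, a partner of amino acid carriers in the brush border, went from 26967 ± 1599 to 31581 ± 1137 scaled counts (SD, n = 4) and rose, with a log2 fold change of 0.19 ± 0.06 (SE) and, in the authors' deposited table, 0.0326 as adjusted p. Pdzk1ip1, the small membrane protein MAP17 that SGLT2 needs, went from 10804 ± 488 to 12846 ± 915 scaled counts (SD, n = 4) and rose, with a log2 fold change of 0.21 ± 0.05 (SE) and 0.0402 by the authors' deposited table. Hnf4a did not pass (log2 fold change 0.16). Of 23 carriers outside the Slc symbols 4 are in the table. Abcc2 (-0.42), Abcc3 (-0.32) and Slco2a1 (-0.27) were lower and the mitochondrial pyruvate carrier subunit Mpc2 (0.16) was higher, and none passed in the authors' table.

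Per length, the carriers spanned a wide range of levels. Slc34a1 had the highest, at 613 ± 52.4 FPKM in controls and 694 ± 48.8 with propionate (SD, n = 4). It made up 26.2% to 28.6% of the summed FPKM of the 48 carriers in control libraries and 30.2% to 31.5% in propionate libraries. That sum is over carriers listed for a difference, 30 of them lower. The FPKM of Slc34a1 itself overlapped, with control replicate 2 at 684 and propionate replicate 1 at 622. Slc34a1 did not pass in the authors' deposited table (adjusted p = 0.329). Slc22a12 (332 ± 34.9 FPKM in controls), Slc25a39 (177 ± 7.25) and Slc7a12 (135 ± 10.03) were also among the 5 highest, and their control libraries did not overlap in FPKM. The lowest were Slc9a9 (0.328 FPKM), Slc5a4a (0.531), Slc38a6 (0.791), Slc24a3 (0.891) and Slc16a6 (1.94). The median carrier stood at 10.9 FPKM in controls. The summed FPKM of all 48 ranged from 2153 to 2405 in controls and from 2059 to 2361 with propionate, so the groups overlapped.

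Base composition differed between the directions. The longest annotated transcript had a median GC content of 54.9% in the 18 higher carriers and 46.5% in the 30 lower ones. Among all genes tested by edgeR it was 54.0% in the higher and 46.4% in the lower. Spearman's rho between log2 fold change and GC content was 0.39 across the 48 carriers and 0.42 across 1783 tested genes, and with gene length it was -0.07 and -0.37. Genes are not independent replicates, and they share libraries. After a trend on gene length and GC content was removed in each library, edgeR called 6 carriers higher (12.5%) and 7 lower (14.6%) over the listed genes, where it called 22.9% of all 1783 genes tested higher and 9.42% lower. Of the carriers, 25 of 48 then had a log2 fold change above 0. The median log2 fold change of the carriers was then 0.01. Of the 8 carriers that fell, 3 kept their edgeR call, namely Slc9a2, Slc16a6 and Slc13a3. The calls of Slc10a2 (-0.17, edgeR adjusted p = 0.19), Slc22a26 (-0.64, 0.057), Slc7a12, Slc15a2 and Slc35d2 ended. The other lower carriers called after removal were Slc22a12, Slc5a6, Slc52a3 and Slc5a4a, and the higher ones were Slc5a3, Slc16a10, Slc49a4, Slc66a2, Slc26a4 and Slc27a4. Slc5a3 and Slc16a10 had larger log2 fold changes afterwards, 0.91 and 0.52. The trend was fitted to the listed genes alone, so its removal can also take out part of the difference they were listed for. The part of base composition in these differences was not tested beyond this removal.

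**Figure D4:**
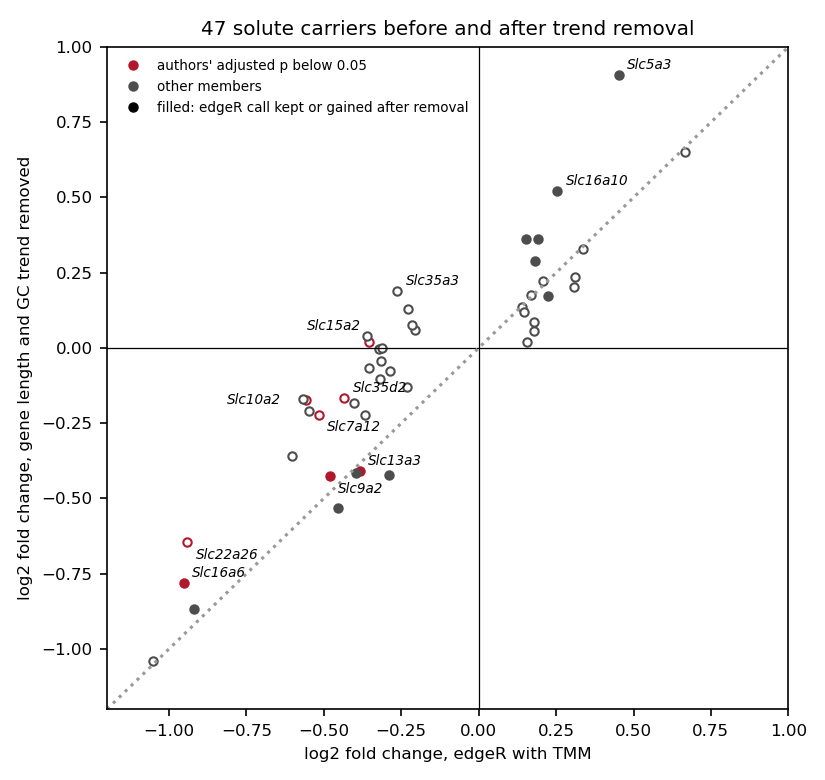
Log2 fold change of 47 carriers by edgeR as reported (horizontal) and after removal of the trend on gene length and GC content (vertical); the dotted line marks equal values. Red points passed the authors' adjusted p of 0.05, and filled points had an edgeR adjusted p below 0.05 over the listed genes after removal. Slc9a2, Slc16a6 and Slc13a3 are the filled red points, and 26 of the 30 lower carriers lie above the dotted line.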

How the data were processed

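RNA-seq libraries of kidney, 4 control and 4 propionate, were grouped by the treatment label, and table columns were matched by sample identifier. The authors deposited, per the file headers, whole-number counts per gene, counts divided by 1 size factor a library (a scaled signal per gene) with group means, FPKM, log2 fold changes, and p-values with adjusted p-values. The submitters' processing notes name DESeq2 and mm10, with no role given. Aligner, counter, strandedness and build of the coordinates are not known here. Coordinates matched GENCODE M21 for no carrier. All listed genes have a deposited p of at most 0.05, and the deposited adjusted p-values were recovered with 16064 genes.

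Each library's total was worked out from its counts, FPKM values and gene lengths. Counts of all genes were tested with edgeR 4.0.16 (R 4.3.3) by the quasi-likelihood test with TMM normalization of these totals and edgeR's own filter on low counts, which left 1792 genes and all 48 carriers. Benjamini-Hochberg adjustment ran over these, with a threshold of 0.05, and no covariate was used. This edgeR test, not the trend removal, was run on simulated counts, and no result of that run is given here. The effect on this edgeR test of listing genes by their p in these same libraries was not tested. TMM factors and dispersions come from selected genes alone, so the balance of directions is uncertain. An SE is the log2 fold change divided by the square root of the F statistic. GC content is that of the longest GENCODE M21 transcript. The length and GC trend was a spline fit to each library's deviations from the gene means, over the listed genes alone. It can therefore hold part of the difference for which these genes were listed. Alternatives were DESeq2 1.42.0, other scalings, no filter, the replicate block, the trend removal and each library left out. Full values are given for carriers past the authors' adjusted p and for up to 2 of each substrate group with the smallest edgeR p, and the 5 highest and 5 lowest FPKM levels are named. Members, lists and motifs were chosen with earlier results of these data known. Some items are not reported here, so 1 carrier is left out of the text and figures beyond its place in counts. Promoter windows were copied from RefSeq (GRCm38.p6). Depth limits the precision of genes with few reads.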

Additional observations from a re-analysis of the deposited data

Results flagged for a closer look

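Among the 96 groups of 4 libraries looked at (48 carriers in each treatment), 5 held a library far from the other 3, by Dixon's test of the gap to the nearest library against the range of the group. About 1 group in 20 would be marked by chance. Slc52a3 in propionate replicate 2 stood at 245 scaled counts, where the others lay at 280.3 to 281. Slc5a6 in control replicate 1 stood at 907, below 1170 to 1216. Slc34a1 in propionate replicate 1 stood at 71776, below 80951 to 82409. Slc41a2 in propionate replicate 1 stood at 453, below 493 to 499.9. Slc24a3 in control replicate 1 stood at 215, above 48.3 to 72.9.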

How the results depend on the processing

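The carriers were listed for a difference in these same libraries, so their signs were likely to hold in other fits of them. Of the 48 carriers 18 were higher and 30 lower with each scaling, without the filter, with DESeq2 and with the replicate block. The same held without each library in turn. Only the removal of the length and GC trend, which was fitted to the listed genes alone, turned signs. It turned 7, with log2 fold changes of 0.019 for Slc15a2, 0.189 for Slc35a3, 0.0384 for Slc22a19, 0.0598 for Slc35b4, 0.13 for Slc35d1, 0.0747 for Slc33a1 and 4.1e-05 for Slc41a2. The 28 carriers called lower by edgeR over the listed genes then became 7, and the 751 genes called lower in all became 168. The 8 carriers called higher became 16 with the authors' size factors and 15 with total assigned reads alone, and the 465 genes called higher became 863 and 786. The share higher among all called genes was 38.2% with TMM, 53.4% with the authors' size factors and 70.8% with the trend removed. Adjusted over 16064 genes, with those that edgeR did not test given the highest possible p, 0 carriers were called higher and 0 lower. Of all genes 0 and 6 were called. The authors' table called 9 carriers.

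Leaving out 1 library gave 0 to 10 carriers higher and 8 to 25 lower, and 26 to 546 genes higher and 122 to 716 lower in all. The fewest calls came without control replicate 3, with 0 carriers higher and 8 lower. Without propionate replicate 3 or 4 there were 1 higher and 11 lower each. Of the 36 carriers called, 8 kept the call without each library in turn. Same-numbered libraries correlated in their deviations from the group means at 0.245, 0.263, -0.0974 and 0.219, and 5 of 8 libraries correlated best with their own number, a hint from the data and not the design. As the labels give no pairing and the third pair was below 0, the numbers were not taken as pairs. With the replicate block edgeR called 7 carriers higher and 27 lower, and 512 genes higher and 761 lower in all. It ended the calls of Slc38a6 (adjusted p = 0.054) and Slc39a3 (adjusted p = 0.0501). Subtracting the median of all tested genes, chosen after seeing the data, turned no sign. The causes were not tested. Depth limits carriers with few reads, such as Slc5a4a and Slc9a9.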
